A study of Mus musculus with 47 samples.

Results

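Expression of the major histocompatibility complex (MHC) class II presentation genes was examined in mouse liver. Members were the array probes that the scanner files name H2-Aa, H2-Ab1, H2-Eb1, H2-DMa, H2-DMb1, H2-DMb2, Cd74 or Ciita. These 8 genes have 15 of the 56605 gene probes on the array, and 12 of their probes, for 7 genes, were bright enough to be tested among 32979 tested probes of 21877 genes. The study asked how the gut microbiota and the pregnane X receptor (PXR, encoded by Nr1i2), a nuclear receptor that senses drugs and bile acids, shape the liver transcriptome of each sex. Total liver RNA of 47 adult C57BL/6J mice was hybridized, 1 mouse per 1-color array. Pxr+/+ mice and their Pxr-/- littermates, which lack the receptor in the whole body, were bred from Pxr+/- dams, and mice of both sexes drank either plain water (Cont) or water with antibiotics (ATB). ATB was ampicillin at 1 g/L, neomycin at 1 g/L and vancomycin at 0.5 g/L, given for 2 weeks. Each of the 8 groups held 6 mice, apart from the Pxr-/- Cont males, with 5. Mice were caged in small numbers and the labels do not say which mice shared a cage, so p-values measure the spread between mice and leave out any cage effect.

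MHC class II molecules are surface heterodimers that show peptides from endosomes to CD4+ T cells. In the liver they are known mainly from dendritic cells, B cells, Kupffer cells and, at a lower level, sinusoidal endothelium, while hepatocytes at rest carry little of them. Newly made chains are held by the invariant chain (Cd74) until proteases of the endosome degrade it, and H2-DM then exchanges its last fragment for a peptide. Transcription of all these genes depends on the co-activator CIITA, which does not bind DNA itself but docks on factors bound to conserved promoter elements named the X box and the Y box. Interferon gamma is a known inducer of Ciita, with IRF1 among the factors on the way. In a piece of liver, fewer cells of a type and less RNA per cell cannot be told apart.

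The stretches below are shown because they hold letters that match the cores of these elements, in H2-Aa those of the Y box alone. They were read from RefSeq promoters on build GRCm38.p6, which run from 250 bases before to 50 after each start site. Of the 8 genes, 5 were matched in that table, and H2-Ab1, Cd74 and Ciita were not. Capitals mark the core of the Y box, ATTGG, which reads CCAAT on the other strand. Further capitals, upstream of it, mark the core of the X box, AGCAAC, in H2-Eb1 and the letters AACNGATGA in H2-DMb1 and H2-DMb2. H2-DMa, with 2 promoters in the table, held neither X box pattern, as was the case for H2-Aa. Its Y box letters lay further upstream, in a stretch that ends 181 bases before the start site against 31 in H2-Aa. The H2-DMa stretch is not shown. Each runs 5′ to 3′ along the gene's own strand.
H2-Eb1, chr17:34305763-34305824, plus strand: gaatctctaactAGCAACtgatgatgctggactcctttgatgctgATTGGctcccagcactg
H2-DMb1, chr17:34153087-34153146, plus strand: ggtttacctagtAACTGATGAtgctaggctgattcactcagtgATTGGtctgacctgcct
H2-DMb2, chr17:34145116-34145175, plus strand: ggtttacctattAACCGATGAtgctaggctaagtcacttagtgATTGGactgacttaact
H2-Aa, chr17:34287855-34287921, minus strand: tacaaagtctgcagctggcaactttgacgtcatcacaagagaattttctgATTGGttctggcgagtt

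The Y box letters were found on either strand in 5 of the 6 promoters of these 5 genes (1 of the 2 of H2-DMa lacked them), against 37.4% of all 32851 promoters in the table. AGCAAC was found in H2-Eb1 alone among the 5, against 14.8% of promoters, and AGCAAC followed by ATTGG after 10 to 40 bases in 0.524%. The letters AACNGATGA were chosen after these promoters were seen, and they share AAC with AGCAAC in H2-Eb1. They were present in H2-Eb1, H2-DMb1 and H2-DMb2 and in 0.648% of promoters. AACNGATGA followed by ATTGG at the same distance occurred in 6 promoters of the table, 3 of which belong to H2-Eb1, H2-DMb1 and H2-DMb2. The stretches of H2-DMb1 and H2-DMb2, neighboring genes for H2-DM beta chains, had 51 of 60 bases in common. A match is a run of letters and does not show that a factor binds there.

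Levels are given below as the log2 of the median spot signal after normalization, and a difference of 1 on this scale is a 2-fold change. Signals of different probes are not compared. A gene was called when the Benjamini-Hochberg adjusted p of limma, over all tested probes, was 0.05 or less and the fold change was above 1.2. Over all arrays, the 75th percentile of the signal before normalization lay between 306 and 492.5. Between 31087 and 34477 gene probes were well above background. That percentile was 404 to 459 in Pxr+/+ Cont females and 309.5 to 388.5 in Pxr+/+ Cont males, without overlap. It was 333 to 486 in Pxr-/- Cont females. Array brightness thus differed between the sexes in Pxr+/+ Cont mice, and its part in the differences below was not tested. Xist was well above background on 0 arrays labelled male and Eif2s3y on 0 arrays labelled female. The probe for Nr1i2 gave Pxr-/- minus Pxr+/+ differences of -0.29 in Cont females and -0.28 in Cont males without being called, and its place relative to the deleted part is not known, so it does not check the genotype. All 10 hepatocyte markers were measured.

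The 7 genes were highest in Pxr+/+ Cont females, and males of the same genotype and treatment had a lower signal for each (the plot of each mouse shows all groups). With the normalization used here, all 7 genes were lower in Pxr+/+ Cont males by 0.83 to 0.97 on the log2 scale, roughly 2-fold. Under quantile normalization, which removes whole-array shifts, the differences were smaller, from -0.77 to -0.57 (median -0.67). Over all tested genes, 29.9% were called lower in males in this comparison and the median difference was -0.20, with 85.5% of genes below 0.

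H2-Aa and H2-Ab1 encode the alpha and beta chains of I-A, the class II molecule that C57BL/6 mice display. H2-Ab1 (probe at chr17:34406296-34406355 on mm9, plus strand) ranged from 12.07 to 13.01 in Pxr+/+ Cont females, with a median of 12.58, and from 11.27 to 11.96 in males, with a median of 11.65. Every male was below every female. The difference was -0.97 (SE 0.23), a 1.96-fold lower signal in males (limma, adjusted p = 0.00132). The other 3 probes for H2-Ab1 gave -1.0, -0.99 and -0.91 and were called too. H2-Aa (chr17:34421285-34421344, minus strand) ranged from 8.51 to 9.44 in females, with a median of 9.02, and from 7.73 to 8.62 in males, with a median of 8.19. The groups overlapped, with 5 of the 6 males below all females. H2-Aa differed by -0.83 (SE 0.22, adjusted p = 0.00309), and it was the 1 gene whose call was lost when whole-array shifts were removed by quantile normalization (-0.57, adjusted p = 0.0580). H2-Eb1, the beta chain of I-E (chr17:34453075-34453134, plus strand), ranged from 11.52 to 12.77 in females, with a median of 12.29, and from 10.82 to 11.85 in males, with a median of 11.31. Of the males, 4 of 6 were below all females. Its difference was -0.94 (SE 0.23, adjusted p = 0.00166). Its partner H2-Ea, whose promoter is deleted in C57BL/6 mice, was too dim to be tested.

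**Figure D1:**
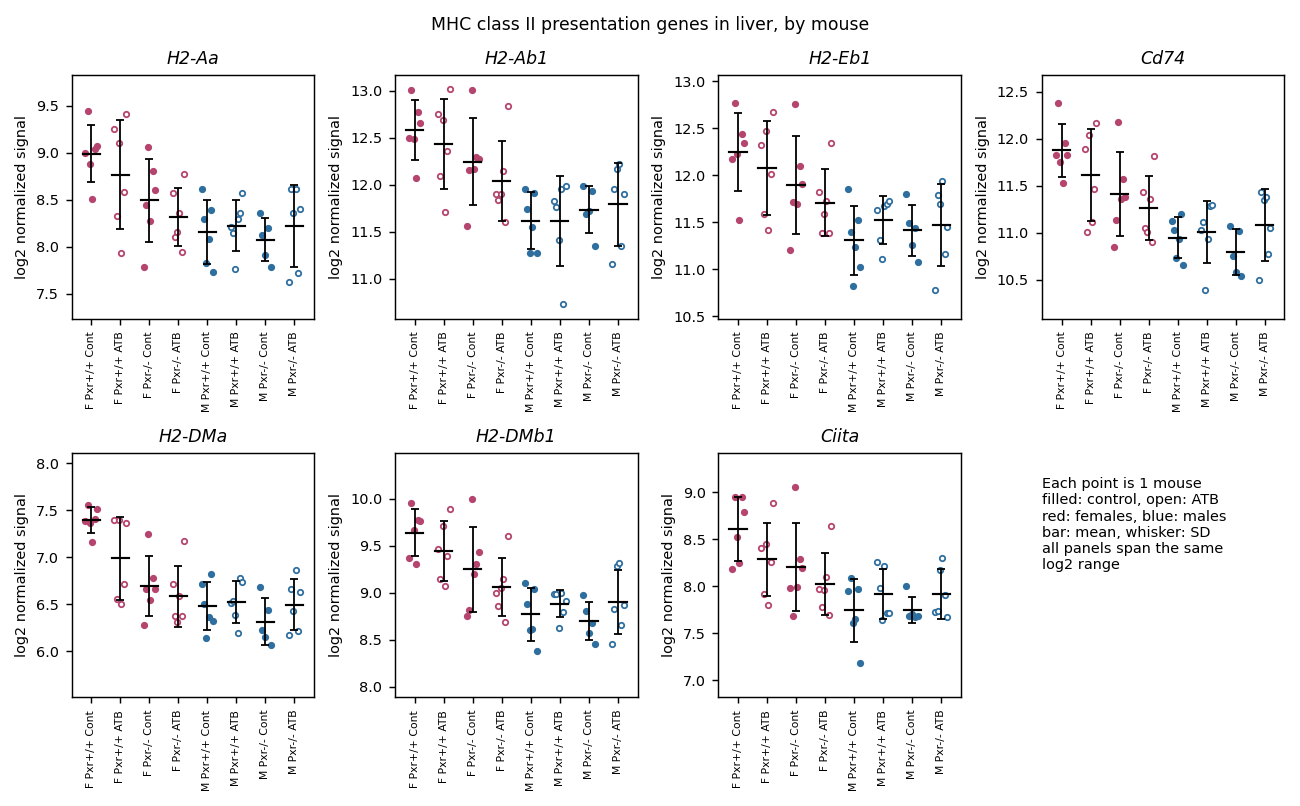
Normalized log2 signal (vertical axis) of each of the 7 tested MHC class II genes in every mouse, by group (horizontal axis). Each point is 1 mouse, each bar a group mean and each whisker its SD. Pxr+/+ Cont females have the highest mean in all 7 panels, and the 4 male groups lie lowest. For H2-DMa, the 6 Pxr+/+ Cont females sit between 7.17 and 7.55 and the 6 males between 6.14 and 6.82.

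The genes that load these molecules differed as much. Cd74, the invariant chain (chr18:60972075-60972132, plus strand), ranged from 11.52 to 12.37 in Pxr+/+ Cont females, with a median of 11.83, and from 10.65 to 11.20 in males, with a median of 10.98. The groups did not overlap, and the difference was -0.93 (SE 0.20, adjusted p = 0.000506). H2-DMa, the alpha chain of H2-DM (chr17:34274300-34274863, plus strand, an interval longer than the probe), had a median of 7.40 in females, range 7.17 to 7.55, and of 6.44 in males, range 6.14 to 6.82. This gene had the narrowest spread among Pxr+/+ Cont females (SD 0.14, n = 6), and all males were below all females. Its difference of -0.92 (SE 0.17) had the lowest adjusted p of the 7 genes, 4.55e-05. H2-DMb1, a beta chain of H2-DM (chr17:34297109-34297168, plus strand), ranged from 9.31 to 9.95 in females, with a median of 9.72, and from 8.38 to 9.10 in males, with a median of 8.75. Again no male reached the lowest female, and the difference was -0.87 (SE 0.17, adjusted p = 0.000183). A further probe for H2-DMb1 was well above background on 0 of 47 arrays. H2-DMb2 was well above background on 1 of 47 arrays, with a signal of 18 to 37.5 against a local background of 15 to 21, and was not tested.

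Ciita, the regulator of all of these genes, differed in the same direction. Its brightest probe (chr16:10526458-10526517, plus strand) ranged from 8.18 to 8.95 in Pxr+/+ Cont females, with a median of 8.66, and from 7.18 to 8.09 in males, with a median of 7.80. The groups did not overlap, and the difference was -0.86 (SE 0.19, adjusted p = 0.000566). Among the dimmer Ciita probes, one gave -0.44 and was called, one gave -0.27 and missed the threshold (adjusted p = 0.0762), and one was well above background on 1 of 47 arrays. In all, every male was below every female for 5 of the 7 genes, which held for 15.9% of all genes, beside the 29.9% called lower. Under quantile normalization, which set the median difference of all genes to 0.01, 6 of the 7 genes were called lower against 8.36% of all genes. Within each of the 3 wash batches all 7 genes were lower in males, with medians of -0.98, -0.69 and -1.35 (the last from 1 mouse of each sex), and leaving out any 1 of the 12 mice left all 7 called.

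In the other combinations of genotype and treatment the sex difference was smaller for every gene. In Pxr-/- Cont mice, males minus females ranged from -0.62 to -0.38, and 2 of 7 genes were called lower (6 at an unadjusted p under 0.05) against 13.7% of all genes. Cd74 was at 11.07, 10.76, 10.58, 11.02 and 10.54 in the 5 males and between 10.84 and 12.17 in the 6 females, with a median of 11.37. Of the 5 males 3 were below all females, and the difference was -0.62 (SE 0.21, limma adjusted p = 0.0400). H2-DMb1 was at 8.97, 8.81, 8.57, 8.68 and 8.46 in males and between 8.75 and 10.00 in females, with a median of 9.25. The groups overlapped, and the difference was -0.55 (SE 0.18, adjusted p = 0.0324). These 2 calls were lost under several settings: under quantile normalization 0 of 7 genes were called, and without female 3, 4 or 6 or male 4 or 6 the count was 0 as well.

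In Pxr+/+ ATB mice, males minus females ranged from -0.82 to -0.36, and 3 of 7 genes were called lower (6 at an unadjusted p under 0.05) against 9.01% of all genes. H2-DMb1 ranged from 8.63 to 9.0 in males, with a median of 8.95, and from 9.07 to 9.90 in females, with a median of 9.43. The groups did not overlap, with all males below all females as in 4.35% of all genes, and the difference was -0.56 (SE 0.17, adjusted p = 0.0251). It was called in 9 of the 12 fits that left out 1 mouse. Cd74 had a median of 11.07 in males, range 10.39 to 11.29, and of 11.68 in females, range 11.004 to 12.168. With overlapping groups it differed by -0.61 (SE 0.20, adjusted p = 0.0396). This call of Cd74 was lost in 5 of 10 other settings (highest adjusted p = 0.0651, without wash batch) and held in 5 of the 12 fits that left out 1 mouse. H2-Ab1 differed by -0.82 (adjusted p = 0.0119). Its call held in 10 of 10 other settings, all with the same probe, and in 10 of the 12 fits that left out 1 mouse. It leaned on 1 spot. Male 5 had 10.73 on the probe that stands for the gene, below the other males at 11.41 to 11.99, whereas the overlapping probe gave 11.78 in the same mouse, within the 11.40 to 11.82 of the other males. Without male 5, H2-Ab1 differed by -0.64 (limma adjusted p = 0.0576), and without female 6 by -0.69 (adjusted p = 0.0592). The other 3 probes gave -0.61, -0.60 and -0.59 with all mice, none of them called. The number of called genes depended on single females here, from 0 without female 6 to 6 without female 4.

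In Pxr-/- ATB mice the sexes were closest. Males minus females ranged from -0.25 to -0.09, and limma called 0 of 7 genes (0 at an unadjusted p under 0.05), whereas 23.3% of all genes were called lower. The widest of the 95% intervals, that of H2-Ab1, ran from -0.71 to 0.21. The sign was not settled, since under quantile normalization the differences ran from -0.07 to 0.13. The median of the 7 genes was -0.16, beside -0.17 for all genes.

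**Figure D2:**
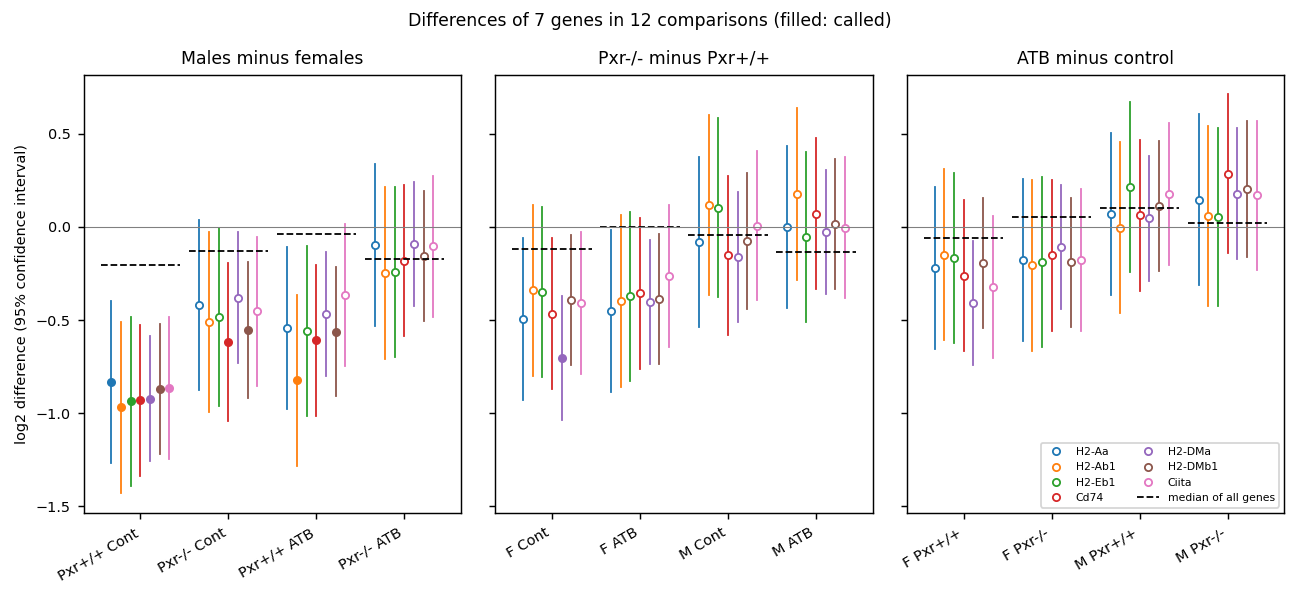
Log2 differences (vertical axis) of the 7 tested genes in the 12 comparisons (horizontal axis), with 95% confidence intervals from limma, filled points for called genes and dashed lines at the median of all genes. Points below 0 are lower in males, in Pxr-/- or in ATB mice. All 7 genes lie at -0.83 or below in Pxr+/+ Cont males against females. In males, the genotype differences lie on both sides of 0, from -0.16 to 0.18. The treatment differences of males run from -0.003 to 0.21 in Pxr+/+ and from 0.05 to 0.29 in Pxr-/-.

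The question whether loss of PXR changed these genes was put to each sex and treatment. In Cont females, Pxr-/- minus Pxr+/+ ranged from -0.70 to -0.34 (median -0.41, beside -0.12 for all genes), and 1 of 7 genes was called lower (5 at an unadjusted p under 0.05) against 2.99% of all genes. That gene was H2-DMa. In Pxr-/- females it ranged from 6.28 to 7.25, with a median of 6.66, and 5 of the 6 mice were below all Pxr+/+ females. The difference was -0.70 (SE 0.17), a 1.63-fold lower signal in Pxr-/- (adjusted p = 0.0162). H2-DMa was called with any 1 of the 12 mice left out, but not under quantile normalization (-0.57, adjusted p = 0.0560). Of the others, H2-Aa differed by -0.49, Cd74 by -0.46, Ciita by -0.41, H2-DMb1 by -0.39, H2-Eb1 by -0.35 and H2-Ab1 by -0.34. Female 3 of the Pxr-/- Cont group was the highest of its group for the mean of the 7 genes, 10.47 against 9.20 to 9.88 for the other 5. Without this mouse 4 genes were called lower, namely H2-DMa (-0.82), Cd74 (-0.62), Ciita (-0.58) and H2-DMb1 (-0.55).

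In ATB females, Pxr-/- minus Pxr+/+ ranged from -0.45 to -0.26, and limma called 0 of 7 genes (3 at an unadjusted p under 0.05), with 0.206% of all genes called in either direction. These differences were uneven between wash batches: all 7 genes were lower in batches 1 and 3 (medians -0.49 and -0.81) and 3 of 7 in batch 2 (median 0.06). Batch 1 held 3 mice of each genotype, batch 2 held 2 and batch 3 only 1. In males the genotype differences lay on both sides of 0. They ran from -0.16 to 0.12 in Cont males, with 0 of 7 genes called (0 at an unadjusted p under 0.05, 0.187% of all genes called), and from -0.06 to 0.18 in ATB males, with 0 of 7 called (0 at an unadjusted p under 0.05, 0.919% of all genes).

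ATB was compared with Cont within each sex and genotype, and limma called 0 of the 7 genes in any of these. In Pxr+/+ females the differences ranged from -0.41 to -0.15, where 0.0137% of all genes were called. H2-DMa had the lowest value, -0.41 (95% interval -0.74 to -0.08, adjusted p = 0.402), and was the 1 gene at an unadjusted p under 0.05. It ranged from 6.50 to 7.40 in ATB females, with a median of 7.04, and 3 of the 6 mice were below all Cont females. In Pxr-/- females the differences ran from -0.21 to -0.11 (0.0274% of all genes called), in Pxr+/+ males from 0.00 to 0.21 (1.04%) and in Pxr-/- males from 0.05 to 0.29 (0.11%), with 0 genes at an unadjusted p under 0.05 in each of these 3. The intervals leave room for modest changes, with that of Cd74 in Pxr-/- males running from -0.14 to 0.71.

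Whether the effects themselves differed was tested as a difference of differences in the same limma fit, and 0 of 7 genes were called in each of the 6 tests. The genotype effect of males minus that of females, which equals the change of the sex difference with genotype, ranged from 0.31 to 0.54 in Cont mice (0.0229% of all genes called) and from 0.26 to 0.58 in ATB mice (0.0411%). For H2-DMa in Cont mice it was 0.54 (95% interval 0.06 to 1.02, adjusted p = 0.973), the only value of the 6 tests at an unadjusted p under 0.05. The ATB effect of males minus that of females ranged from 0.14 to 0.50 in Pxr+/+ mice (0.0411%) and from 0.24 to 0.44 in Pxr-/- mice (0.00457%). The ATB effect in Pxr-/- minus that in Pxr+/+ ranged from -0.06 to 0.30 in females (0%) and from -0.16 to 0.22 in males (0.0183%). A smaller sex difference in Pxr-/- or ATB mice was therefore not shown by these tests.

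The means of the female groups stood in one order for all 7 genes. Pxr+/+ Cont females came first, then Pxr+/+ ATB females, Pxr-/- Cont females, Pxr-/- ATB females, and last the 4 male groups. For H2-Ab1 these means were 12.59 ± 0.32 (SD, n = 6), 12.44 ± 0.48, 12.25 ± 0.46 and 12.04 ± 0.43 in females and 11.62 to 11.79 in males. Neighbors in the order differed by less than their pooled SD for every gene, except H2-DMa in Pxr+/+ Cont and ATB females, 0.41 apart with a pooled SD of 0.33. The groups are shared between comparisons and the genes vary together, so the agreement of 7 genes is not 7 observations.

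The 7 genes moved together from mouse to mouse within groups. With group means subtracted, Pearson r between pairs of genes over the 47 mice ranged from 0.63 (H2-DMa and Ciita) to 0.95 (H2-Aa and H2-Eb1). All points share the arrays, their RNA and any remaining whole-array shift: the mean of all tested genes had r = 0.43 with the mean of the 7 genes. Ciita followed the mean of the other 6 least (r = 0.80) and H2-Eb1 most (r = 0.96). Within-group SDs ran from 0.29 for H2-DMa to 0.41 for H2-Ab1, so that differences between mice of a group were as large as several of the group differences above.

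**Figure D3:**
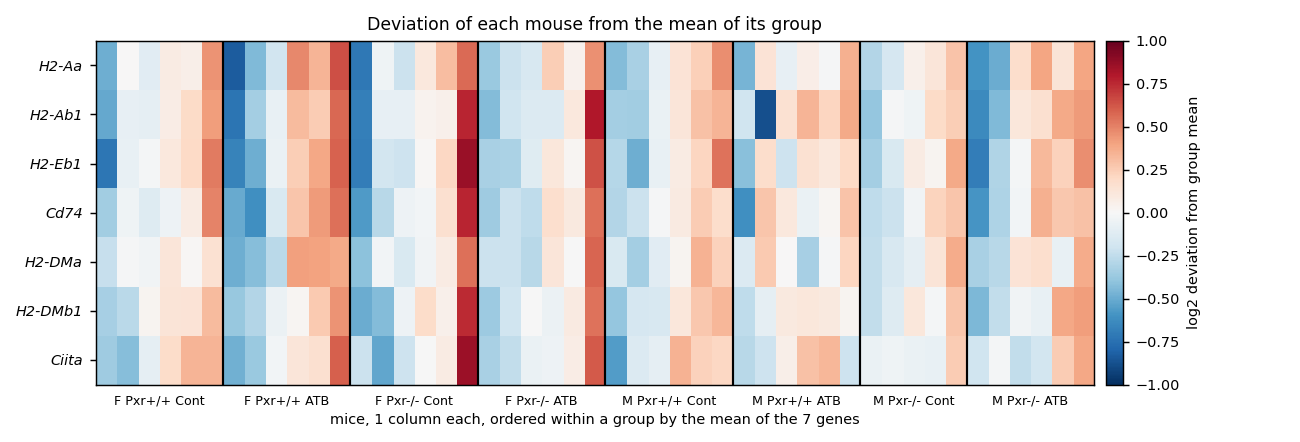
Deviation of each gene from its group mean (color, log2 units) in the 47 mice (columns, by group) for the 7 tested genes (lines of cells). Most columns lean one way over the 7 genes, as in female 3 of the Pxr-/- Cont group, the highest of its group, while some mice have genes on both sides. The darkest such cell is the H2-Ab1 spot of 1 Pxr+/+ ATB male.

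Among genes outside the list, the 10 whose within-group pattern was most like the mean of the 7 were Itgb7 (r = 0.80 over 47 mice), Ly6a (0.77), Gbp4 (0.75), Lsp1 (0.74), Gbp2b (0.72), Kif5a (0.72), Gm2629 (0.72), Cxcl9 (0.71), Ppp1r9b (0.71) and Selplg (0.70). Itgb7 encodes an integrin subunit of lymphocytes and dendritic cells, and Gbp4, Gbp2b and Cxcl9 are known as interferon gamma induced genes. The median r over all tested genes was 0.18, and 0.0868% had r above 0.7. By list, the mean of the dendritic cell markers had r = 0.61 with the mean of the 7 genes, T and NK cell markers 0.59, endosomal processing genes 0.54, the interferon gamma route 0.53, stellate cell and fibroblast markers 0.49, class I genes 0.45, sinusoidal endothelial markers 0.44, monocyte markers 0.43, cholangiocyte markers 0.37, Kupffer cell and macrophage markers 0.34, hepatocyte markers 0.31 and B cell markers 0.24. The mean of all tested genes, at 0.43, was level with the monocyte markers and above the cholangiocyte, Kupffer cell, hepatocyte and B cell markers. H2-Oa with H2-Ob had 0.44, turnover and co-stimulation genes 0.26 and the factors that bind the X and Y boxes 0.22.

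Other genes of the pathway also differed between Pxr+/+ Cont males and females, and are given here by list beside the 29.9% of all genes called lower. Among endosomal processing genes 6 of 8 were called lower in males, with a median of -0.47 (4 of 8 under quantile normalization). They included Ctss, the protease that trims the invariant chain (-1.24), Ifi30, a thiol reductase of the endosome (-0.89), Lgmn (-0.72) and Ctsb (-0.59). On the route from interferon gamma to Ciita 6 of 7 were lower, among them Irf1 (-0.83), Ifng (-0.44) and the receptor chain Ifngr1 (-0.44), but only 2 of 7 under quantile normalization. Of the factors that bind the X and Y boxes 4 of 7 were lower, Rfx5 (-0.41), Rfxank (-0.40), Rfxap (-0.39) and Nfyb (-0.39), and 0 of 7 under quantile normalization. H2-Oa and H2-Ob, the chains of the H2-DM inhibitor H2-O, were both lower (-0.37 and -0.35), and neither was called under quantile normalization. Of 4 turnover and co-stimulation genes, the co-stimulatory ligands Cd86 (-0.85) and Cd80 (-0.38) were lower. The ubiquitin ligases Marchf1 (0.01) and Marchf8 (0.17), which limit class II at the surface, were not called. In the class I pathway 13 of 13 genes were lower, with a median of -0.64 (10 of 13 under quantile normalization), led by the immunoproteasome subunits Psmb8 (-1.0), Psmb10 (-0.98) and Psmb9 (-0.91) and by the peptide transporter Tap1 (-0.81).

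Markers of several cell types, only some of which are known to carry class II, were also lower in males. For dendritic cells 7 of 11 tested markers were called lower in Pxr+/+ Cont males, with a median of -0.67 (6 of 11 under quantile normalization), among them Clec10a (-1.04), Itgax (-1.01), Cd209a (-0.90) and Batf3 (-0.88), while Xcr1 was not measurable. The mean level of the dendritic cell list ran from 7.38 to 7.51 in females and from 6.66 to 6.92 in males. For Kupffer cells and macrophages 13 of 14 were lower, with a median of -1.05 (10 of 14 under quantile normalization), led by Vsig4 (-1.49), C1qa (-1.20), Folr2 (-1.20) and C1qb (-1.15). Their mean level ran from 10.68 to 11.58 in females and from 9.75 to 10.18 in males, with no overlap. Most other lists did not overlap either: dendritic cell, monocyte, T and NK cell, sinusoidal endothelial, and stellate cell and fibroblast markers. The same held for class I, endosomal processing, the interferon gamma route and the factors that bind the X and Y boxes. B cell, cholangiocyte and hepatocyte markers, H2-Oa with H2-Ob, and turnover and co-stimulation genes overlapped. T and NK cell markers were lower for 8 of 10 (median -0.76), monocyte markers for 5 of 8 (median -0.70), sinusoidal endothelial markers for 7 of 10 (median -0.55) and stellate cell and fibroblast markers for 6 of 9 (median -0.54). Under quantile normalization these counts were 7 of 10, 4 of 8, 6 of 10 and 1 of 9, beside 8.36% of all genes. The monocyte list held the largest single differences, Ly6c2 (-3.04) and Ly6c1 (-2.95). Its mean level, which includes these genes, ran from 8.13 to 8.53 in females and from 6.93 to 7.49 in males. The mean without them was not computed. B cell markers were lower for 4 of 9, with a median of -0.38 (1 of 9 under quantile normalization), and Cd79a and Blk were too dim to be tested. Cholangiocyte and hepatocyte markers were called in 0 of 6 and 0 of 10. The part of these cell types in the sex difference of the class II genes was not tested.

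**Figure D4:**
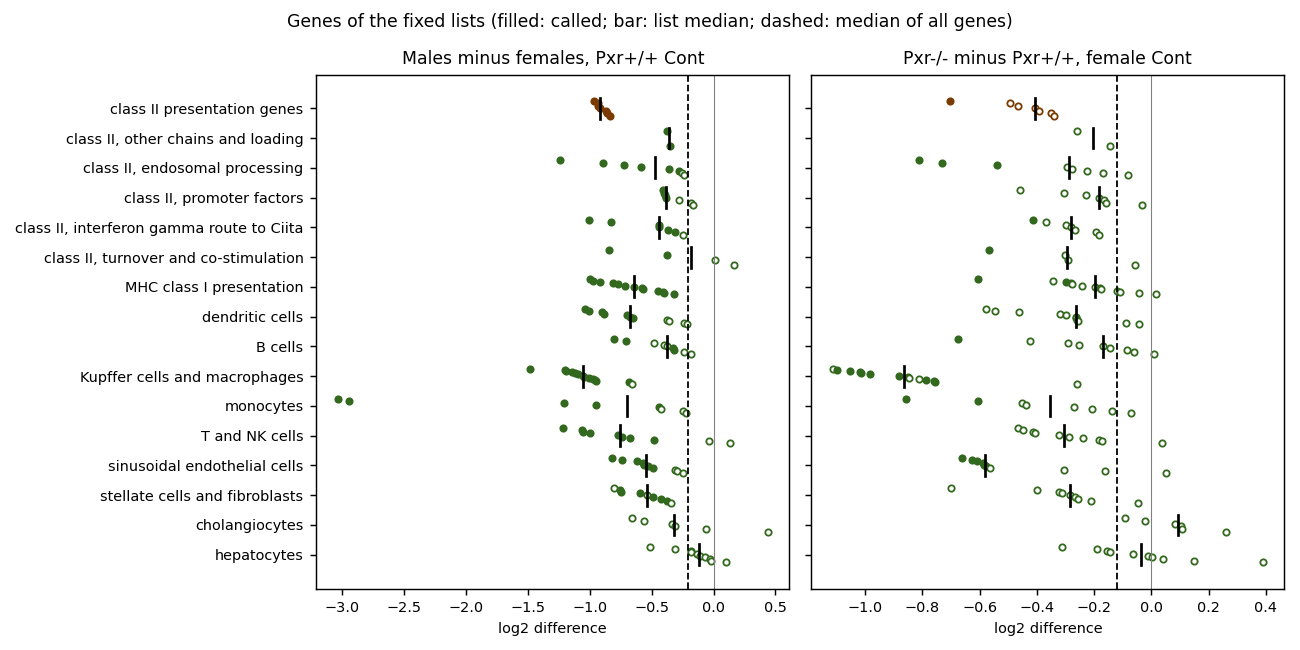
Log2 difference (horizontal axis) of each tested gene of each list (vertical axis), for Pxr+/+ Cont males minus females and for Pxr-/- minus Pxr+/+ in Cont females. Each point is a gene, filled where called, bars are list medians and dashed lines the median of all genes. By median, the Kupffer cell and macrophage markers (-1.05) and the class II genes (-0.92) lie furthest left in Pxr+/+ Cont males against females, the lowest single points are the monocyte markers Ly6c2 and Ly6c1, and hepatocyte markers lie at -0.12, nearer 0 than the median of all genes at -0.20.

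The same lists were set beside loss of PXR in Cont females, some by mean level alone. The Pxr+/+ Cont females of this comparison are those of the sex comparison too. Of all genes, 2.99% were called lower in this comparison and 0.635% under quantile normalization. Kupffer cell and macrophage markers were lower in Pxr-/- for 9 of 14 (median -0.87, 3 of 14 under quantile normalization), with Vsig4 at -1.10, C1qa at -1.05, C1qb at -1.02 and Csf1r at -1.01. Sinusoidal endothelial markers were lower for 6 of 10 (2 of 10 under quantile normalization). Endosomal processing genes were lower for 3 of 8, namely Ctss (-0.81), Ifi30 (-0.73) and Lgmn (-0.54), and for 0 of 8 under quantile normalization. With the normalization used here, 1 of 7 genes of the interferon gamma route was lower (Ifngr2, -0.41). In the class I pathway 2 of 13 were lower (Tap1, -0.61, and H2-T23, -0.30). Of the turnover and co-stimulation genes 1 of 4 was lower (Cd86, -0.57), and of the factors that bind the X and Y boxes 0 of 7. For these lists, counts under quantile normalization are not given here. Dendritic cell markers and T and NK cell markers were called in 0 of 11 and 0 of 10, with medians of -0.26 and -0.31. The mean level of the Kupffer cell and macrophage list was 9.82 to 10.41 in Pxr-/- Cont females against 10.68 to 11.58 in Pxr+/+ Cont females, with no overlap. That of the endosomal processing list did not overlap either, by a narrow margin (13.044 to 13.589 against 13.597 to 13.829). The mean level of the dendritic cell list overlapped (6.90 to 7.51 against 7.38 to 7.51). The monocyte list overlapped too (7.71 to 8.32 against 8.13 to 8.53). So did the mean levels of the B cell, stellate cell and fibroblast, cholangiocyte and hepatocyte lists and of H2-Oa with H2-Ob. In Pxr-/- ATB mice, where 0 of 7 class II genes were called between the sexes, Kupffer cell and macrophage markers were called in 0 of 14, dendritic cell markers lower in 5 of 11 and T and NK cell markers lower in 7 of 10, beside 23.3% of all genes called lower. Under quantile normalization these counts were 0 of 14, 0 of 11 and 5 of 10, beside 6.35% of all genes. The mean level of the monocyte list, which includes Ly6c2 and Ly6c1, did not overlap between the sexes of Pxr-/- ATB mice. It ran from 6.82 to 7.27 in males and from 7.88 to 8.18 in females. Nor was there overlap for the T and NK cell list (6.71 to 7.33 against 7.36 to 7.78) or the class I list (12.21 to 12.50 against 12.58 to 12.99). The same held for the stellate cell and fibroblast list (8.15 to 8.91 against 8.93 to 9.20). The mean level of the Kupffer cell and macrophage list varied widely in Pxr-/- ATB males, from 8.98 to 11.18 (SD 0.73), against 9.51 to 10.49 (SD 0.36) in females. With such a spread, the absence of calls does not show equal levels. The part of these cell types in the values of the class II genes was not tested.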

How the data were processed

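Liver RNA of 47 mice in 8 groups was measured on 1-color Agilent arrays, 1 per mouse, on 6 slides washed in 3 batches. The authors read the images with Feature Extraction 10.10.1.1, and the deposited scanner files give spot intensity on a linear scale with local background (probe coordinates on mm9). Their deposited table holds log2 values that the authors had filtered, corrected for wash batch and normalized with CrossNorm. It served as an alternative.

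Here, the log2 of the median intensity was averaged over the spots of a probe, with 413 non-uniform spots left out (0 for members). A probe was tested when at least 5 arrays of 1 group were well above background. Wash batch was removed with group means kept, and arrays were CrossNorm-normalized over 300 random stacks. The 5-mouse group filled its stacks with a repeated array. This keeps shifts between groups that quantile normalization removes. One limma 3.58.1 model (R 4.3.3, with files read through the package data.table, version 1.17.8) held group and wash batch. Figures were drawn with matplotlib 3.10.9. The brightest tested probe stood for a gene. Only the limma fit and the calling rule were tested on simulated data, which had independent noise per probe and no whole-array shift. The simulation did not cover the filter, wash batch removal or normalization.

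The members and lists were chosen with earlier results of these data known. Named were all members, up to 4 called genes per list with the largest change, and the 10 genes most like the members. The value of 1 listed gene is not reported here. Alternatives were quantile normalization, the processed intensity less its 75th percentile, normexp (offset 50), no filter, a filter over all 47 arrays, no wash batch, slide or replicate number as a block, the compared arrays alone, and leaving out each mouse.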

Additional observations from a re-analysis of the deposited data

Results flagged for a closer look

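Of the 56 combinations of a tested gene and a group, 1 held a mouse far from the others of its group by Dixon's test, which flags about 1 in 20 by chance. Ciita was at 8.00 in male 2 of the Pxr-/- Cont group, against 7.67 to 7.71 in the other 4 mice of that group, and this gap made up 0.884 of the group's range.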

How the results depend on the processing

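Across the alternatives, 440 of the counts of called genes stayed within 1.5 times the reported count and 22 did not. Most of the 440 come from the 14 comparisons with 0 called genes, where a count that stays at 0 is unchanged. The 22 all belong to sex in Pxr-/- Cont, sex in Pxr+/+ ATB and PXR in Cont females. Of the single gene values 553 stayed on their side of the threshold, 47 lost a call, 9 gained one and 0 changed sign with a call. All 7 genes stayed lower in Pxr+/+ Cont males without any 1 mouse (7 to 7 called), and 6 of 7 were called under quantile normalization, the processed signal and normexp. For the sex difference in Pxr-/- Cont mice, 0 genes were called under quantile normalization, the processed signal, normexp, no filter and the compared arrays alone, and 1 under the authors' values and without wash batch. For loss of PXR in Cont females 0 were called under quantile normalization and the processed signal. Leaving out 1 mouse moved the counts from 0 to 2 for sex in Pxr-/- Cont, from 0 to 6 for sex in Pxr+/+ ATB and from 1 to 4 for PXR in Cont females, and left 0 to 0 in the other 14 comparisons. The cause was not tested. With the replicate number as a block, 7, 2 and 2 genes were called for sex in Pxr+/+ Cont, Pxr-/- Cont and Pxr+/+ ATB mice, 1 for PXR in Cont females and 0 elsewhere. Same-numbered mice correlated with r from -0.34 to 0.55, above 0.1 in at most 3 of the 6 pairs of a comparison, so the numbers do not pair the mice. Signal over background limits H2-DMb2, the dim Ciita probes and the dim H2-DMb1 probe. Without the filter H2-DMb2 was called lower in Pxr+/+ Cont males too (-0.32), from signals that were not well above background.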
